A study of Mus musculus with 8 samples.

Results

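The genes described here encode parts of the TGF-beta pathway and genes it is known to control, measured in cultured preadipocytes of the inguinal white fat of C57BL/6 mice and in adipocytes made from them. They were chosen by name, 9 genes in all, and 6 of them (Inhba, Tgfb1, Tgfb2, Ltbp2, Pmepa1 and Smad7) had an entry in the table of cluster markers, in 35 of its 13337 entries. Tgfbi, Ltbp1 and Bmp4 had no entry in the table as used here and are not described further. Wild type (WT) mice were compared with mice of the genotype Hmgn1-/- and Hmgn2-/- (DKO), which lack 2 nucleosome-binding proteins, at day 0 and at day 6 of a culture that drives the cells towards brown-like adipocytes. The mice were 8 to 12 weeks old, and day 6 cells of both genotypes had received insulin, dexamethasone, IBMX, T3 and rosiglitazone for 4 days and then insulin and T3. Each of the 4 groups had 2 samples, but the table pools the cells of all 8 samples into 12 clusters, numbered 0 to 11, and gives no values by sample, genotype or day. No value below therefore has a replicate, an SD or a test, and neither WT and DKO nor day 0 and day 6 can be compared with it. The question left for these genes was in which clusters they were detected.

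TGF-beta and its relatives, the activins and the BMPs, are secreted dimers that bind paired receptor kinases, which then phosphorylate SMAD proteins that enter the nucleus and switch genes. TGF-beta is released in a latent form that is held in the matrix by LTBP proteins until it is activated. In fat, TGF-beta signalling is known to restrain the differentiation of preadipocytes and to promote contractile and matrix genes, whereas BMP4 is known to favour commitment to the adipocyte lineage.

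Each entry holds 2 percentages of positive cells, those of the cluster itself and those of the cells outside it. Detection counts cells with at least 1 molecule of the RNA captured. It depends on how deeply a cell was sampled and flattens near 100%, and it is not a level that can be compared between genes. The table lists a gene for a cluster only where it passed the authors' minimums of detection and of difference, so the lack of an entry does not mean 0, and every listed gene had already differed by their measure. The number of cells and the read depth behind each percentage are unknown, so no counting interval is given. The percentages are rounded to 0.1. Lists of marker genes were looked up as well, where an entry marks a difference in either direction. The adipocyte genes of a list of 8 all had entries, as did 5 of 7 preadipocyte genes. The lists of immune, endothelial, glial and mural genes had 0 entries, and the authors had taken out immune, glial and endothelial cells. Of 4 mesothelial genes 1 had entries, Krt19. It was detected in 27.6% of cluster 0 against 10.2% outside and in 34.7% of cluster 9 against 11.3%. Of a list of 6 genes of brown-like adipocytes 3 had entries. In cluster 11 Ppargc1a was detected in 47.5% of cells against 1.8% outside, Elovl3 in 36.7% against 2.8% and Cox7a1 in 72.3% against 13.8%. Dlk1 and Cd34 of preadipocytes and Ucp1 and Cidea of brown-like adipocytes had no entry in the table as used here.

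The clusters are named by number and by their leading genes. Of the clusters outside 4 and 10, Acta2, an actin of contractile cells, was detected in 81.4% to 98.1% of the cells of clusters 0, 1, 3, 5 and 9 and in 5.4% to 23.2% of the cells of clusters 2, 6, 8 and 11. Cd36, a fatty acid transporter of adipocytes, had the opposite distribution, with 1.0% to 3.5% in the former clusters and 68.4% to 99.8% in the latter. These sets are called Acta2-high and Acta2-low here, a grouping made after the values had been seen. They held 53.5% and 27.0% of all cells by the cluster shares solved from the percentages. Cluster 7 (led by Agt and Ogn) had no Acta2 entry. Proliferation genes led clusters 5 and 9 among the former (Pclaf and Top2a in 5, Cenpa and Hmmr in 9) and cluster 6 among the latter (Mki67 and Pclaf). Clusters 4 and 10, with 12.8% of the cells, stood apart. In cluster 4 the median entry had 10.8% of cells positive against 63.0% outside, and in cluster 10 the values were 8.1% and 62.35%, so low values there are shared with 97.9% and 99.9% of their entries.

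Inhba and Ltbp2 were both detected in more cells of clusters 0, 5 and 9 than outside, as was Tgfb2 in cluster 2. The stretch before the start of each of these genes is therefore shown. It was read from RefSeq on GRCm38.p6 (the mm10 assembly) in the direction of the gene. A total of 4 of the 6 genes had a promoter sequence in that source, and Pmepa1 and Smad7 had none. Capitals mark CAGAC or its reverse complement GTCTG, the core that SMAD proteins are known to bind. The Inhba stretch (chr13:16011601-16011850, plus strand) ends at the gene start annotated by GENCODE. The Ltbp2 stretch (chr12:84876559-84876741, minus strand) overlaps an exon of the antisense gene D030025P21Rik, and the Tgfb2 stretch (chr1:186705990-186706239, minus strand) an exon of the antisense gene Gm29491. The Inhba and Tgfb2 stretches lie inside the longer spans that RefSeq gives these genes.
Inhba: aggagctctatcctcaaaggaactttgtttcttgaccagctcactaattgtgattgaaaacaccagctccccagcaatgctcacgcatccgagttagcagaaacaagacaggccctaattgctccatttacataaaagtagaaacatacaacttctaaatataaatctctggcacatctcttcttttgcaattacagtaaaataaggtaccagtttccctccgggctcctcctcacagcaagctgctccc
Ltbp2: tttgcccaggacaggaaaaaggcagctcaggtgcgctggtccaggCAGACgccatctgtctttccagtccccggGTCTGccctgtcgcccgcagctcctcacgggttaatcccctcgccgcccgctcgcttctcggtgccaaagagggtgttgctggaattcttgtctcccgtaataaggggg
Tgfb2: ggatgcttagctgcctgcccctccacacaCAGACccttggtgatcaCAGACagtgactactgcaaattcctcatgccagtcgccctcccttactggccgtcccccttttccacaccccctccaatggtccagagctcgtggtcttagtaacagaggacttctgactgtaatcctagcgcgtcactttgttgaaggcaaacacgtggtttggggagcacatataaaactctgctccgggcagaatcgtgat

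The core was found 2 times before Ltbp2, 2 times before Tgfb2 and 0 times before Inhba or before Tgfb1 (chr7:25686752-25687001, plus strand, not printed). It occurred in 42.2% of 32536 windows of the 250 bases before a gene start, so its presence does not set these genes apart. The AP-1 site TGAGTCA (4.45% of windows) and the cyclic AMP element TGACGTCA (1.56%) were found in 0 of the 4 stretches. Both strands were searched, the Ltbp2 stretch is 183 bases long and so shorter than the windows, and a match is only a run of letters.

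Of the ligands, Inhba (chromosome 13, 16011851 to 16031621, plus strand), whose product forms activin A, was detected in 47.9% of all cells and differed widely between clusters. It was found in 78.1% of the cells of cluster 0, in 79.1% of cluster 5 and in 74.3% of cluster 9, against 42.9%, 44.9% and 46.3% of all other cells. By contrast, it was found in 9.5% of the cells of cluster 8 and 7.9% of cluster 11, where the other cells had 50.4% and 48.6%. Among the 7 listed clusters the 3 highest were all Acta2-high, and the 2 lowest outside cluster 4 were Acta2-low. Cluster 3, also Acta2-high but led by Mmp11 and Cpxm1, did not follow this order, with 36.1% against 49.3%. In cluster 4 the value was 8.9% against 52.1%. The 5 clusters without an entry (1, 2, 6, 7 and 10) had a mean of 46.3%, with a rounding error of at most 0.18 percentage points, close to the 47.9% over all cells. The cells of clusters 0, 5 and 9 made up 28.9% of all cells and 46.9% of the cells with Inhba detected.

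Tgfb1 (chromosome 7, 25687002 to 25705077, plus strand), the most studied TGF-beta, had entries in 3 clusters, each with fewer positive cells than elsewhere. In cluster 8 the RNA was found in 13.9% of cells, and in 32.1% outside. In cluster 11, led by the triglyceride enzyme gene Gpat3 and the lipid droplet gene Plin1, the values were 7.2% and 31.4%. In cluster 4 they were 2.3% and 34.1%. The other 9 clusters had a mean of 36.0% (rounding error at most 0.071 percentage points), and Tgfb1 was detected in 31.0% of all cells. The listed clusters held 17.0% of all cells and 3.71% of those with Tgfb1.

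Tgfb2 (chromosome 1, 186622792 to 186705989, minus strand), a second TGF-beta, had 1 entry, for cluster 2, an Acta2-low cluster led by A2m and Apln, where 28.0% of the cells were positive against 10.2% of all others, a ratio of 2.75. Cluster 2 held 12.1% of all cells and 27.5% of the cells with Tgfb2 detected. Over all cells the gene was found in 12.4%, and the 11 clusters without an entry had a mean of 10.2%. Inhba and Tgfb1 were both lower than outside in clusters 4, 8 and 11, the clusters listed for both, and Tgfb2 shared no listed cluster with either.

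**Figure D1:**
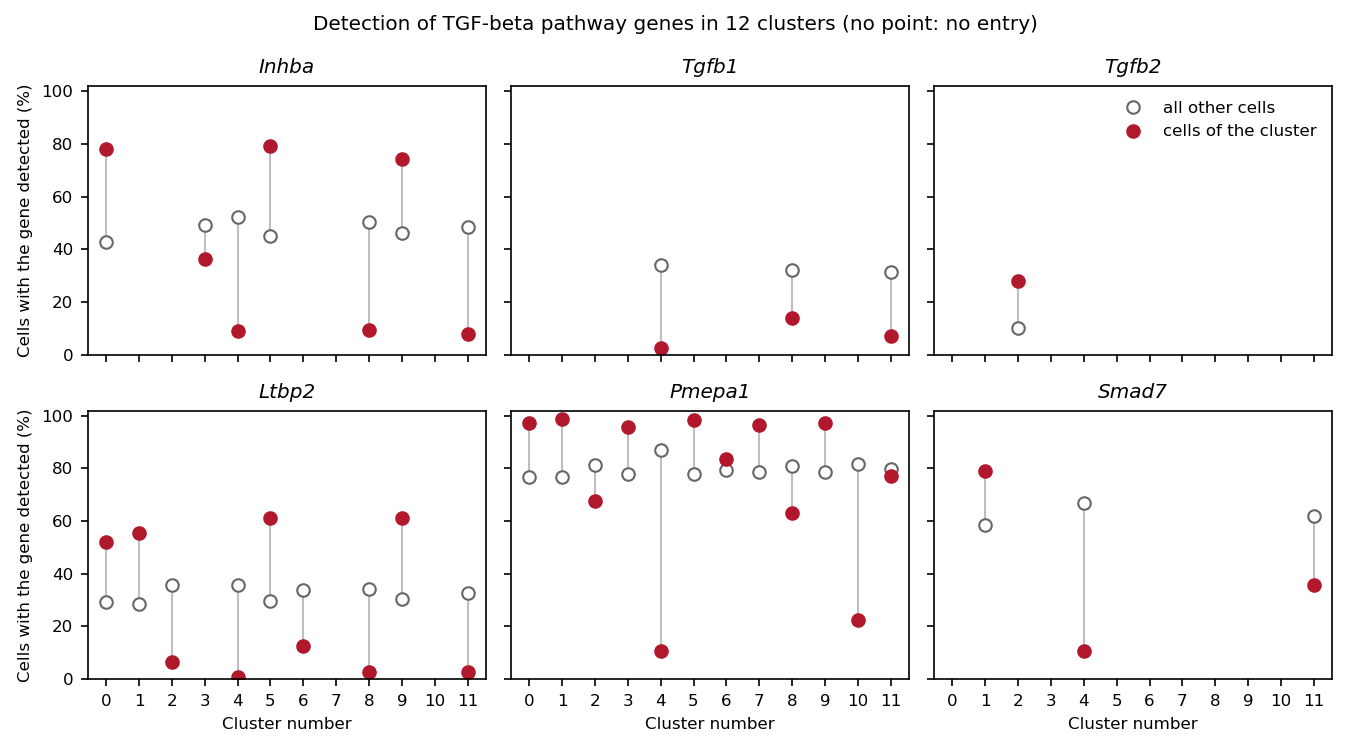
Percentage of cells with each gene detected (vertical axis, percent) by cluster number (horizontal axis), in the cells of the cluster (filled) and in all other cells (open), with a grey line joining the pair; clusters without an entry have no point and no value has a replicate. Pmepa1 has a point in all 12 clusters, while Tgfb2 has 1, at 28.0% in cluster 2.

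Ltbp2 (chromosome 12, 84783212 to 84876532, minus strand) is a matrix microfibril protein of the latent TGF-beta binding family that is known, unlike its relatives, not to bind latent TGF-beta itself. Clusters 0, 1, 5 and 9 had 51.9%, 55.4%, 61.2% and 61.2% of cells positive for Ltbp2, against 28.6% to 30.6% outside each. In the 4 Acta2-low clusters 2, 6, 8 and 11 the values were 6.6%, 12.6%, 2.7% and 2.7%, against 32.8% to 35.9% outside. The other Acta2-high cluster, 3, had no entry. How many genes of the whole table part between these sets in the same way was not counted. Outside clusters 4 and 10, the highest value was 22.7 times the lowest. In cluster 4 only 0.9% of the cells were positive. Clusters 3, 7 and 10, without an entry, had a mean of 30.3% (rounding error at most 0.44 percentage points). Clusters 0, 1, 5 and 9 held 43.1% of all cells and 74.8% of the cells with Ltbp2, while clusters 2, 4, 6, 8 and 11 held 36.6% of all cells and 6.26% of those with Ltbp2. The cycling clusters did not move together: clusters 5 and 9 had the highest listed detection of Ltbp2 and cluster 6 had 12.6%, although Mki67, a gene of dividing cells, was detected in 78.6%, 91.2% and 92.0% of their cells.

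Pmepa1 (chromosome 2, 173224458 to 173276533, minus strand), a membrane protein induced by TGF-beta that is known to bind SMAD proteins and dampen the signal, was the only one of these genes listed for all 12 clusters. It was detected in 79.8% of all cells. In the Acta2-high clusters nearly every cell was positive, with 97.4%, 98.8%, 95.9%, 98.4% and 97.2% for clusters 0, 1, 3, 5 and 9. Cluster 7 was at the same height, with 96.6%. The Acta2-low clusters 2, 6, 8 and 11 had 67.8%, 83.7%, 63.2% and 77.3%. Detection near 100% leaves little room, so the values were also set on the scale of -ln(1 - fraction). Such a value would equal the mean molecules per cell only if counts were Poisson with the same mean in every cell of a cluster. On that scale cluster 1 was at 4.42 and all other cells at 1.46, a ratio of 3.04. Cluster 8 was at 1.00 and all other cells at 1.65, a ratio of 0.61. The cells outside mix clusters with very different detection, so their value is not a mean number of molecules per cell. The ratios compare pooled fractions only. In clusters 6 and 11 the percentages lay within 10 percentage points of those outside, 83.7% against 79.5% and 77.3% against 79.8%. In clusters 4 and 10 Pmepa1 was found in 10.5% and 22.6% of the cells, which lowers the percentage outside each other cluster.

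Smad7 (chromosome 18, 75367529 to 75395935, plus strand), the inhibitory SMAD that blocks the receptors and is itself induced by the signal, was listed for 3 clusters. Cluster 1 had 79.0% of cells positive against 58.5% outside. The values were 35.6% against 61.8% for cluster 11 and 10.7% against 66.7% for cluster 4. Cluster 1, led by Abi3bp and Cxcl14, was thus the only listed cluster in which Smad7 was above the other cells. The 9 clusters without an entry had a mean of 65.2% (rounding error at most 0.084 percentage points), between these values. In cluster 11 Pmepa1 was detected in 77.3% of the cells and 79.8% outside, and Smad7 in 35.6% and 61.8%. The cells outside include clusters 4 and 10, where few cells had Pmepa1 (10.5% and 22.6%), which lowers its value outside. Pmepa1 in cluster 11 was below the 95.9% or more of the Acta2-high clusters. Whether the 2 genes of negative feedback differed in cluster 11 was not tested.

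**Figure D2:**
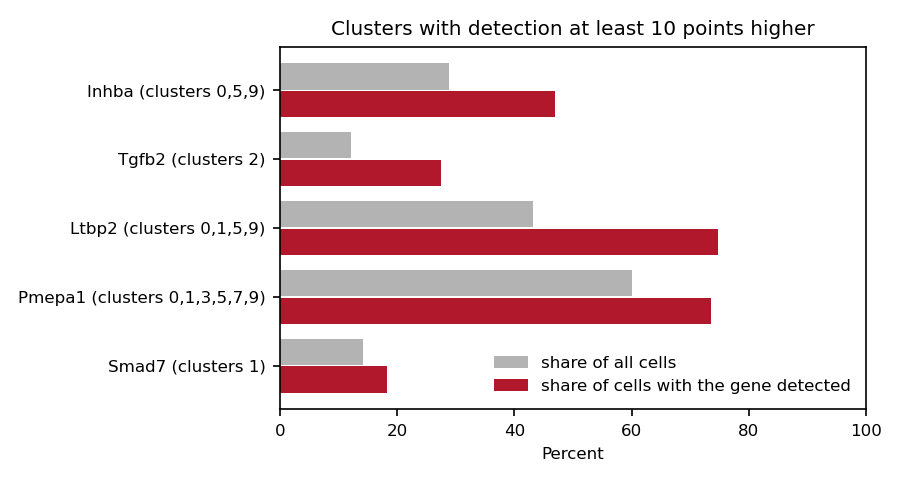
For each gene with a cluster in which detection was at least 10 percentage points higher than outside, the share of all cells held by those clusters (grey) and the share of the cells with the gene detected (red), both in percent. The 4 clusters named for Ltbp2 hold 43.1% of all cells and 74.8% of the positive cells.

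Counted over all 35 entries, detection was at least 10 percentage points higher in the cluster in 15 and at least 10 lower in 18, and 2 lay between. The same held for 40% (higher) and 37.4% (lower) of all 13337 entries of the table. Outside clusters 4 and 10 the counts were 15 higher and 12 lower of 29 entries, beside 50.4% and 22.4% of all entries there. The median difference of these 29 entries was 17.8 percentage points, and that of all 10547 entries was 10.2. The entries nearest to the limit of 10 were Pmepa1 in cluster 6 (4.2 higher) on one side and Inhba in cluster 3 (13.2 lower) on the other. Every gene had to pass the authors' minimums to be listed, so these counts describe the entries and are no evidence that the genes as a group differed.

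By cluster, the listed genes of the set lay on one side in most clusters, as did many other entries. Detection was at least 10 percentage points higher for 3 of 3 listed genes in cluster 0 (66% of all entries of that cluster). The same was true of 3 of 3 genes for cluster 1 (58.8%), 3 of 3 for cluster 5 (72.1%), 3 of 3 for cluster 9 (76.9%) and 1 of 1 for cluster 7 (59.8%). In cluster 8 it was at least 10 lower for 4 of 4 listed genes, Inhba, Ltbp2, Pmepa1 and Tgfb1, where 45.6% of all entries were. In cluster 11 it was lower for 4 of 5, the same genes with Smad7 in place of Pmepa1, where 28.7% of all entries were. In cluster 6 Ltbp2 was the 1 of 2 genes that was lower (14.9% of all entries). Cluster 2 had 1 of 3 genes higher, Tgfb2 (24.6%), and 2 of 3 lower, Ltbp2 and Pmepa1 (34.5%). Cluster 3 had Pmepa1 higher (48.7%) and Inhba lower (28.3%). All 5 listed genes were lower in cluster 4 and the 1 listed gene in cluster 10, as were 92.8% and 98.5% of the entries of these clusters.

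The rest of the pathway was read from 8 lists of 87 other genes. Among 12 receptor genes, 8 had entries. The type I and type II TGF-beta receptor genes Tgfbr1 and Tgfbr2 had their highest values in clusters where Ltbp2 was low. Acvrl1, another receptor gene of the list, named after its values were seen, had the opposite placement. It was at 44.2% in cluster 1 and at 1.3% to 7.2% in clusters 2, 6, 8 and 11. Tgfbr1 was found in 68.4% of cluster 2 and 70.5% of cluster 6, against 33.1% and 34.7% outside, and in 33.6% and 37.5% of clusters 5 and 9. Tgfbr2 was detected in 90.6% of cluster 2, 89.3% of cluster 6 and 88.8% of cluster 8, against 59.2% to 61.4% outside. In cluster 11, also Acta2-low, Tgfbr1 was at 35.8% against 37.4% and Tgfbr2 at 59.5% against 63.1%. The placement thus did not hold for all clusters with adipocyte genes. Tgfbr3, the co-receptor betaglycan, named after its values were seen, had 96.9%, 96.9% and 94.8% in clusters 2, 6 and 8 and 72.0% to 76.6% in clusters 0, 1, 5 and 9. Cluster 11 was near the latter, with 76.8% positive for Tgfbr3 against 74.5% outside. The activin receptor gene Acvr2a was highest among its listed clusters in cluster 1, at 68.1% against 38.3%. Over the list, outside clusters 4 and 10, 10 of 31 entries were at least 10 percentage points higher and 6 lower, with a median difference of -0.3, beside 50.4% higher, 22.4% lower and a median of 10.2 over all entries there.

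Of 11 extracellular antagonists, 9 had entries, and Fst and Bambi were above the other cells in clusters 2 and 6. Fst encodes follistatin, which binds and neutralises activins. Cluster 2 had 82.8% and cluster 6 84.0% of cells positive, against 46.2% and 47.9% outside, whereas clusters 3 and 11 had 25.5% and 24.1%. Inhba and Fst had no cluster with entries for both other than clusters 3 and 11, where each was below its value outside. Bambi, a decoy receptor, had its entries in clusters 2, 6 and 8, with 38.0% to 50.9% of cells positive against 21.3% to 21.9% outside. Fstl1, a follistatin relative, had its lowest listed value outside cluster 4 in cluster 11, at 59.5% against 90.7%. The list had 14 of 41 entries at least 10 percentage points higher and 12 lower outside clusters 4 and 10 (all entries 50.4% and 22.4%), with a median difference of 7.1 (all entries 10.2).

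Of 12 genes that hold or activate latent TGF-beta, 10 had entries, and outside clusters 4 and 10, 23 of 47 entries were at least 10 percentage points higher, a share near the 50.4% of all entries. A further 16 were lower (22.4% of all entries), and the median difference was 3.4 (all entries 10.2). Thbs1, a matrix protein that can activate latent TGF-beta, was detected in 90.2% to 98.5% of the cells of clusters 0, 3, 5 and 9 and in 23.4% to 56.3% of clusters 2, 6, 8 and 11. Fbn1, whose microfibrils hold the latent complex, was at 96.0% and 97.8% in clusters 0 and 1 and at 30.0% in cluster 11. Mmp14, a membrane-bound matrix protease, was at 94.0% in cluster 1 and 21.6% in cluster 11. Lrrc32, which presents latent TGF-beta on the cell surface and was named after its values were seen, was at 83.7% to 85.3% in clusters 0, 1, 5 and 9 and at 6.7% to 37.2% in clusters 2, 6, 8 and 11.

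Among 17 genes known as TGF-beta targets, 16 had entries. Outside clusters 4 and 10, 35 of 106 entries were at least 10 percentage points higher and 33 lower (all entries 50.4% and 22.4%), with a median difference of 3.55 (all entries 10.2). In clusters 0, 1, 3, 5, 7 and 9 the counts were 9 higher of 13, 6 of 12, 3 of 9, 8 of 9, 3 of 3 and 6 of 7, with 1 lower entry in all of them, Cnn1 in cluster 3. The shares of all entries that were higher in these clusters were 66%, 58.8%, 48.7%, 72.1%, 59.8% and 76.9%, so that the targets were near or below them in clusters 0, 1 and 3. In clusters 2, 6, 8 and 11 the counts were 6 lower of 11, 5 of 12, 7 of 14 and 14 of 16, with 0 higher. Of all entries 34.5%, 14.9%, 45.6% and 28.7% were lower in these clusters, and the targets were near that share in cluster 8. Tagln, a contractile protein, was at 84.4% to 98.4% in the Acta2-high clusters and at 4.9% to 20.9% in the Acta2-low ones. Ccn2, a matricellular growth factor, was at 51.0% to 87.5% in clusters 0, 3, 5 and 9 and at 1.6% to 11.7% in clusters 2, 6, 8 and 11. Acta2, which sets the 2 groups of clusters here, belongs to the same list. Col1a1, a collagen gene named after its values were seen, was at 91.9% or more in every listed cluster but 4, which leaves little room for a higher value.

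Few genes of BMP ligands had entries, and Bmp4 had none. Of 9 listed genes only Bmp1, in fact a protease, and Gdf10 had entries. Gdf10, a BMP relative, was found in 73.7%, 61.5% and 71.9% of clusters 1, 2 and 6, against 36.9% to 39.7% outside, and in 22.7% of cluster 0, so it did not part along Acta2. Of 6 BMP target genes 3 had entries, with 7 of 12 at least 10 percentage points higher, 1 lower and a median difference of 15.85 outside clusters 4 and 10 (all entries 50.4% higher, 22.4% lower, median 10.2). Id1, an inhibitor of differentiation factors, was at 93.5% in cluster 11 against 61.1% outside and at 48.1% in cluster 2 against 63.5%. Id2 was at 81.8% in cluster 6 against 51.4%, and Id3 at 96.5% in cluster 9 against 79.1%. Of 13 SMAD genes and SMAD regulators, 5 had entries, with 3 of 10 higher and 1 lower and a median difference of 5.25 (all entries 50.4%, 22.4% and 10.2). Zeb2, a SMAD-binding repressor, was at 96.9% in cluster 6 against 80.6%. Smad1 was at 25.7% in cluster 11 against 38.9% and Skil, a SMAD corepressor, at 32.7% against 39.5%. Of 7 further TGF-beta and activin ligands only Tgfb3 had an entry, for cluster 10 (2.8% against 14.1%).

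**Figure D3:**
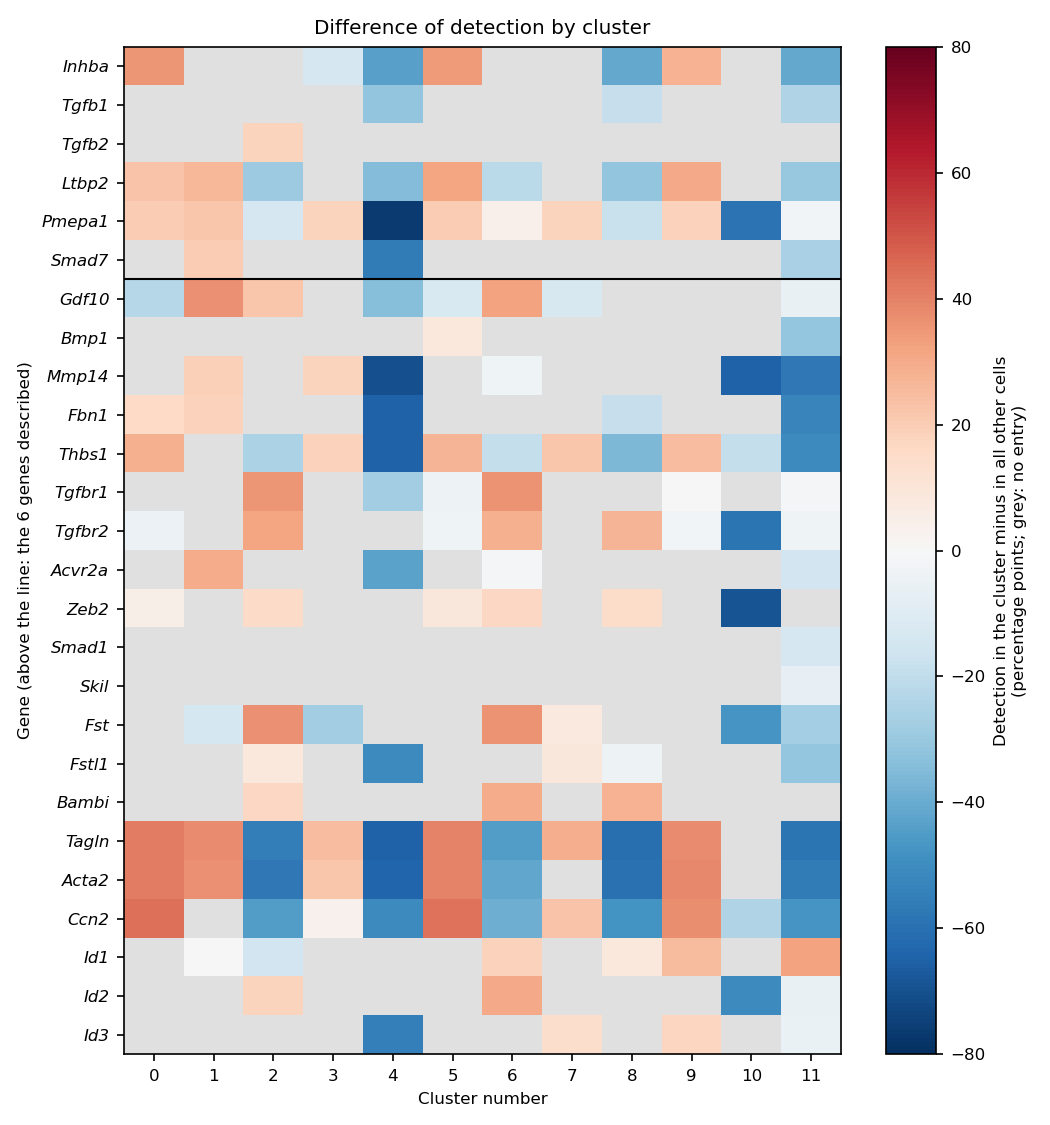
Difference of detection between the cells of a cluster and all other cells, in percentage points (colour, red higher and blue lower in the cluster, grey without an entry), for the 6 genes described (above the line) and the leading genes of the pathway lists, by cluster number. Ltbp2, Thbs1, Tagln and Ccn2 are blue in clusters 2, 6, 8 and 11, and Tgfbr1, Tgfbr2, Fst and Bambi are red in clusters 2 and 6.

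The genes whose difference of detection varied most like that of each member were sought over the clusters other than 4 and 10, with Pearson's r given as a description. For Inhba, over 6 clusters, they were Myl9 (r = 0.997), Nexn (0.996) and Cnn2 (0.991), of 87 genes that shared at least 6 clusters with it. For Ltbp2 they were Ddah2 and Tubb3 over 7 clusters and Myh10 over 6 (each 0.998, of 457 genes). For Pmepa1 they were Atp6v1g1 (0.998), Fermt2 (0.998) and Akt1 (0.997) over 6 clusters, of 591 genes. Such values were common, since r was above 0.9 for 22, 176 and 228 genes and the median r was 0.65, 0.83 and 0.85. The points share the cells of 1 pooled data set. Among the members themselves, r was 0.93 between Ltbp2 and Pmepa1 over 8 clusters and 0.86 between Inhba and Pmepa1 over 6.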

How the data were processed

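Single-cell RNA was captured with a 3′ droplet chemistry from 8 cultures (WT and DKO, day 0 and day 6, 2 of each). Per the study's methods and the submitters' processing notes, the authors mapped reads to mm10 with Cell Ranger 6.0.0, pooled the captures at equal read depth, filtered and log-normalized cells in Seurat, took out cells of immune, glial and endothelial type, and compared each of 12 clusters with all remaining cells. No removal of doublets is described, and single cells were not analysed here. The deposited fractions of cells with a gene detected, inside each cluster and outside it, were used and are printed as percents. The fold changes and p-values deposited beside them are the authors' own comparisons and were not used. No column held values of a sample, so 0 were left unused, and depth per sample is unknown.

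In Python 3.11.15 (matplotlib 3.10.9, scipy 1.17.1, pandas 2.3.3, numpy 2.4.6), cluster shares were solved by least squares from the 10 genes listed in every cluster (they summed to 99.9%), since the share-weighted mean of both fractions must be equal from every entry of a gene. It was so within 0.2 percentage points for 2687 of 2687 genes. The shares gave the detection over all cells and the mean over clusters without an entry. The solver was tested on simulated data. Positions are from GENCODE M21 (GRCm38), sequences from RefSeq. Symbols that a spreadsheet had turned into dates (7, in 35 entries) were left out of named genes and shares. Named were the members, up to 3 genes per pathway list and 3 per likeness search, and 2 leading genes per cluster, by difference of detection. Members and lists were chosen with earlier results of these data known.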

Additional observations from a re-analysis of the deposited data

How the results depend on the processing

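No paired analysis was possible because only values pooled over the 8 samples were given, without a test. Of 50 values under other settings, 44 stayed in place and 6 moved. Several of the 44 could not have moved, so the tally does not measure robustness. Tgfb2 had 1 entry, so every choice among its entries gave the same value. No higher entry lay in clusters 4 and 10, and every entry met the limit of 25%. Detection over all cells must be equal from every entry of a gene. Calling an entry by a ratio of 1.5 in place of 10 percentage points lowered the count of higher entries from 15 to 8. By construction, that ratio cannot be reached where the fraction outside is too high for 1.5 times it to stay within 1, as for Pmepa1. Counts of lower entries and the other settings (limits of 5 and 20 points, -ln(1 - fraction), without clusters 4 and 10, a larger fraction of at least 25%) stayed within 1.5 times. Lower entries fell from 18 to 12 without clusters 4 and 10, which was still counted as in place. The listed cluster with the highest Inhba was 0 in place of 5 by ratio and by difference. With clusters 4 and 10 included, 1 of 3 genes most like Inhba, 2 of 3 for Ltbp2 and 0 of 3 for Pmepa1 stayed among the first 3. These genes rest on few clusters and should be read as examples. Detection over all cells and over clusters without an entry moved by at most 0.2 percentage points with shares from all genes listed in at least 2 clusters. The effect of read depth on detection could not be measured.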
